A study of Mus musculus with 5 samples.

Results

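The IgG regions are the 606 genomic intervals that the authors' peak caller reported in a chromatin immunoprecipitation sequencing (ChIP-seq) library made with rabbit IgG, an antibody directed at no chromatin protein. All regions of that table were taken, without a threshold, and they make up 606 of the 46856 regions in the 5 tables that were each called on 1 library without a control. The other 4 libraries were STAT3 in SAHA (784 regions), STAT3 in diluent (844), H3K4me3 in SAHA (23280) and H3K4me3 in diluent (21342). All 5 came from dendritic cells grown from the marrow of C57BL/6 female mice aged 10 weeks, cultured 7 days with GM-CSF and IL-4 (10 ng/mL each) and selected for CD11c at a purity given as 95%. The cells of each library were exposed for 12 hours to SAHA, a drug also called vorinostat that blocks histone deacetylases (500 nm, as the labels write the dose), or to diluent. The IgG library came from diluent cells, so SAHA and diluent libraries share 1 control and no IgG library of SAHA cells was analysed here. The labels do not say how many mice were used or whether they were pooled. Each group had 1 library, so no value below has a replicate check. Intervals are exact 95% limits and cover counting error only.

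An IgG library records the DNA that is recovered without a specific antibody. Regions enriched in such a library can hold repeats present in more copies than the assembly shows, or open chromatin that shears easily, and they can then be called in every library of a study. STAT3 is a transcription factor of the cytokine signalling pathway from JAK kinases, and H3K4me3 is a histone mark of active promoters. Binding of STAT3 or deposition of H3K4me3 at an IgG region is therefore read from the excess of ChIP tags over IgG tags, not from the presence of a region.

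The IgG library had 18925827 aligned tags after the caller's duplicate filter, and the other 4 had 17810183 to 25013431. IgG reads aligned less often (77.9%) than those of the other libraries (97.4 to 98.6%). The IgG and STAT3 libraries were sequenced on the same flow cell and the H3K4me3 libraries on another, per the file headers, so flow cell and antibody class cannot be told apart. The caller extended tags to 200 bp in the IgG and STAT3 libraries and to 156 and 163 bp in the H3K4me3 libraries from SAHA and diluent. The 5-base words most over-represented in the reads were CACAC and GTGTG in the IgG library (3.50 and 3.39 times the number predicted from base composition), in STAT3 SAHA (3.50 and 3.40 times) and in STAT3 diluent (3.38 and 3.22 times). The lists of H3K4me3 regions called against IgG held a region within 5 kb of a start of 9 of 10 dendritic cell genes examined, in both conditions, among them Itgax (CD11c) and Zbtb46. They also held one at the T cell genes Cd3d and Lck and at Neurod1, a gene of another lineage, with none at Gata4. Only genes that a deposited list names could be looked up, so a gene such as Spi1 that no list names has no value, and these counts are no independent check of the cell label.

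The 250 bases before the start are given for 4 genes named in the H3K4me3 comparison below. They run 5' to 3' on the strand of the gene, from RefSeq on GRCm38.p6, with each CpG dinucleotide in capitals. The genes are Opn3 (opsin 3, a light-sensing receptor), Nsfl1c (p47, a cofactor of the ATPase p97), Vmn2r29 (a vomeronasal receptor) and Clcn4-2 (a chloride/proton exchanger, Clcn4 in RefSeq).
Opn3: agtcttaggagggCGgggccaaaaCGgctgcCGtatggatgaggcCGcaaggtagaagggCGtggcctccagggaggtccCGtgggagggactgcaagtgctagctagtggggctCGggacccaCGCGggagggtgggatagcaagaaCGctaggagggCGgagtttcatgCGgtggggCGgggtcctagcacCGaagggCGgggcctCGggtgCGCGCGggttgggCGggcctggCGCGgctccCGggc
Nsfl1c: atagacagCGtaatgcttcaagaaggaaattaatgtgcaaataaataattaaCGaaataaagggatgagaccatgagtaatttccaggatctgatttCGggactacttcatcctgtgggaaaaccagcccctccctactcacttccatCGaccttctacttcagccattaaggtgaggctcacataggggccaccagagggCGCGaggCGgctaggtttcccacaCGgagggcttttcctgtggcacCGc
Vmn2r29: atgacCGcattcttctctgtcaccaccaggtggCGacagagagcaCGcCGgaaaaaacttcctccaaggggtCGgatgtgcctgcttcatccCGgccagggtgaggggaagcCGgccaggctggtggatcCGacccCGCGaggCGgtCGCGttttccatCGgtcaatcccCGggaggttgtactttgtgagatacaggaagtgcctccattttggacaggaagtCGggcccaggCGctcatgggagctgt
Clcn4-2: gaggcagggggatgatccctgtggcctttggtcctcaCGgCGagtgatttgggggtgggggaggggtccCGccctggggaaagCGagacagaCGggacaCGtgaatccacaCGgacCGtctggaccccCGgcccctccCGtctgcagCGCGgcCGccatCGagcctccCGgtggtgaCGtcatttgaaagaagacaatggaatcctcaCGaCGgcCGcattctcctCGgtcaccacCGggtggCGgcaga
These held 23, 9, 17 and 22 CpG, in that order, against a median of 6 (quartiles 2 and 16) over the 32851 mouse promoters of the same length. The last 40 bases of the Clcn4-2 sequence matched the first 40 of the Vmn2r29 sequence at 34 positions without a gap, and both genes lie in the same cluster of IgG regions. Of the 17 gene names with a start within 1 kb of an IgG region, 7 had a promoter sequence to match, with 7 (Oasl1) to 39 (3110070M22Rik) CpG. CACAC or GTGTG occurred in the Nsfl1c and Clcn4-2 sequences and not in those of Opn3 and Vmn2r29, and in 42.3% of all promoters. A match to these letters is a description of the window. The IgG regions at Opn3 and Nsfl1c lay 0.883 and 0.874 kb from the nearest listed start, so the windows describe promoters and not those IgG regions.

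The IgG regions were short and mostly weak. A region held a median of 41 tags (range 16 to 3758) over a median of 872.5 bp (294 to 7572 bp). Its fold enrichment, which is the authors' own value of tags over the local background of the same library, had a median of 9.39 (2.5 to 36.36). Together the regions held 66265 tags, or 0.350% of the filtered tags of the library, and the 10 regions with the most tags held 30.8% of these. The STAT3 libraries had a like share of their tags in called regions (0.394% in SAHA and 0.321% in diluent), whereas the H3K4me3 libraries had 60.1% in SAHA and 62.1% in diluent. Of the 606 regions, 17 (2.81%) lay within 1 kb of a transcript start given in the lists, against 14.2% of STAT3 SAHA, 9.48% of STAT3 diluent, 54.4% of H3K4me3 SAHA and 58.3% of H3K4me3 diluent regions. These starts come from the lists against IgG, whose regions are mostly those of H3K4me3 (25723 in SAHA and 22255 in diluent). The choice of starts thus favours the H3K4me3 shares. A further view of position is that 190 IgG regions lay over a listed transcript and 307 lay more than 50 kb from any listed start.

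Most IgG regions were found again in the other libraries when no control was used. STAT3 SAHA overlapped 404 of them by at least 1 bp (66.7%, 62.8 to 70.4), where 46.4% of all STAT3 diluent regions overlapped the STAT3 SAHA table. STAT3 diluent overlapped 384 (63.4%, 59.4 to 67.2), where 392 of all 784 STAT3 SAHA regions (50%) overlapped the STAT3 diluent table. H3K4me3 SAHA overlapped 210 (34.7%, 30.9 to 38.6) and H3K4me3 diluent 233 (38.4%, 34.6 to 42.5), where 44.0% of STAT3 SAHA and 43.1% of STAT3 diluent regions overlapped the H3K4me3 table of their own condition. As shares of their own number, IgG regions thus recurred in the STAT3 tables more often than STAT3 regions recurred in each other. The IgG table was smaller than either STAT3 table, and the counts of overlapping regions were close (404 and 384, against 392). Counted from the STAT3 side, 51.4% of SAHA and 45.4% of diluent regions lay over an IgG region. These shares were close to the 50% and 46.4% found in the other STAT3 table, so no higher recurrence of IgG regions is read. About the H3K4me3 tables no order is read, since many STAT3 regions lie over IgG regions themselves: of those that do not, 38.8% in SAHA and 32.5% in diluent overlapped the H3K4me3 table. In all, 358 IgG regions were in both STAT3 tables, and 190 were in both of those for H3K4me3. With at least 50% of the IgG region covered, the H3K4me3 counts were 104 in SAHA and 127 in diluent, and with only as many top-scoring H3K4me3 regions as there are IgG regions they were 8 and 2.

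Fewer IgG regions overlapped the lists called against IgG, for which this same library was the control. These lists had 8552 regions for STAT3 SAHA, 3507 for STAT3 diluent, 25723 for H3K4me3 SAHA and 22255 for H3K4me3 diluent. Their lowest score was 30 for STAT3 and 50 for H3K4me3, in each condition. The counts that follow thus come from lists of unlike size and lowest score, and the part of either in them was not tested. The authors' deposited lists held 43 of the 606 for STAT3 SAHA (7.10%, 5.18 to 9.44), 3 for STAT3 diluent (0.495%, 0.102 to 1.44), 27 for H3K4me3 SAHA (4.46%, 2.96 to 6.42) and 24 for H3K4me3 diluent (3.96%, 2.55 to 5.84). Of these, 1, 0, 2 and 1 were in the list but not in the single-library table of the same library. Over all regions of the single-library tables, the share found in the matching list was 35.3% for STAT3 SAHA, 33.5% for STAT3 diluent, 95.0% for H3K4me3 SAHA and 94.9% for H3K4me3 diluent. In all, 68 IgG regions lay in at least 1 list, 23 in both H3K4me3 lists, 1 in both STAT3 lists and 5 in a STAT3 and an H3K4me3 list.

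**Figure D1:**
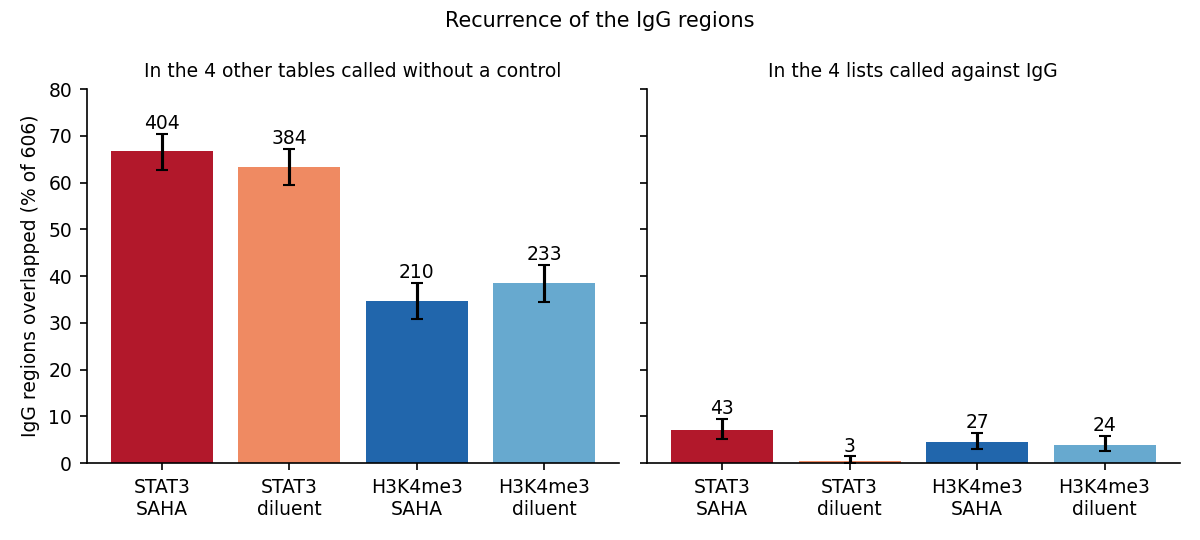
Share of the 606 IgG regions (y axis, %) that overlapped a region of each other library, without a control (left) and in the lists called against IgG (right); bars are shares with exact 95% intervals and the numbers are counts. The STAT3 bars stand at 404 and 384 regions without a control and at 43 and 3 in the lists, and the H3K4me3 bars at 210 and 233, then 27 and 24.

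The regions fell into classes by the other tables that held them, and these classes differed in strength. The 171 regions found in all 4 other tables (28.2%, or 60 regions where at least 50% had to be covered) had a median of 105 tags and a median fold enrichment of 23.1, and held 66.7% of all tags in IgG regions. The 164 regions found in none (27.1%) had a median of 25 tags and a median fold enrichment of 6.37. Between them stood 189 regions found in STAT3 tables alone (fold 8.89) and 70 found in some STAT3 and H3K4me3 tables but not all 4 (fold 12.7). The 12 found in H3K4me3 tables alone had the lowest median fold enrichment of the classes (5.43). Of the 116 regions with a fold enrichment of 20 or more, all were in both STAT3 tables and 105 were in all 4. Of the 260 regions between 5 and 10, 19 were in all 4 and 124 in none.

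**Figure D2:**
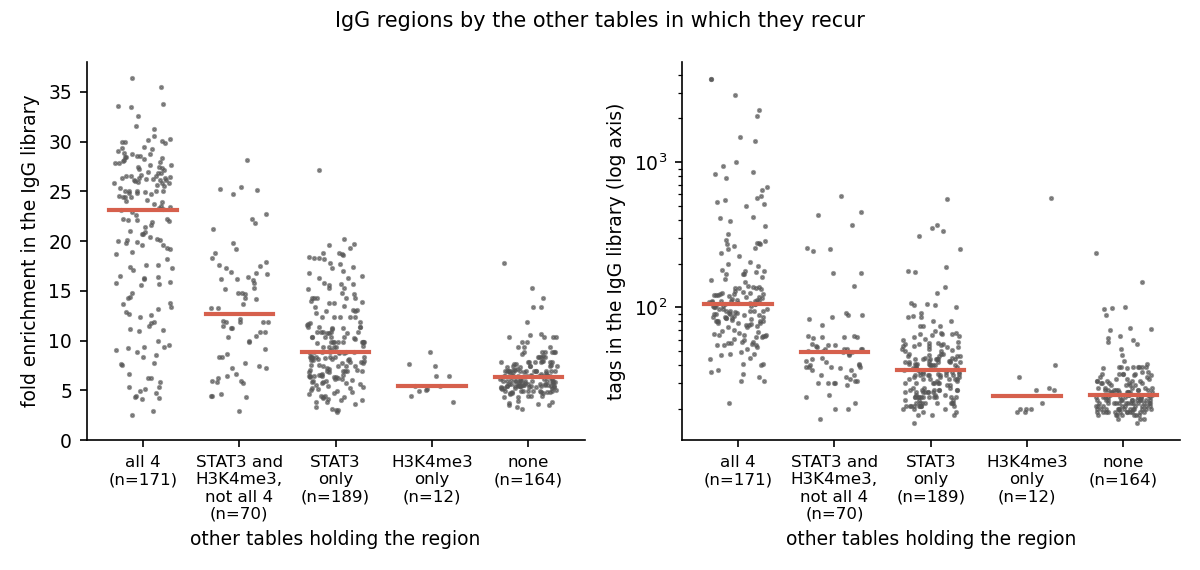
Fold enrichment (left) and tags (right, log axis) of each IgG region in the IgG library, by the other tables that held the region; points are regions and lines are medians. Regions held by all 4 tables reach from 2.5 to 36.36 in fold enrichment, with a median of 23.1, and those held by none have a median of 6.37.

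The 10 IgG regions with the highest fold enrichment (30.3 to 36.36) were all found in all 4 other tables, and 4 of them were also in the STAT3 SAHA list. The highest was chrY:2652047-2652838 (mm9), with 147 tags in STAT3 SAHA, 118 in STAT3 diluent, 33 in H3K4me3 SAHA and 38 in H3K4me3 diluent, against 133 in IgG. The region chr16:63312051-63312947 had 86, 82, 17 and 44 tags in these 4 libraries, against 94 in IgG. In both, the raw STAT3 counts were near the IgG count and the H3K4me3 counts were lower. The libraries differed in filtered tags, and per 1000000 of these STAT3 diluent stood below IgG. At the chrY region it had 4.72, against 8.25 in STAT3 SAHA and 7.03 in IgG. At the chr16 region it had 3.28, against 4.83 in STAT3 SAHA and 4.97 in IgG. chrX:139917076-139918189, which the authors' deposited STAT3 SAHA list assigns to Pak3 (a p21-activated kinase) at 35.4 kb, had 268 tags in STAT3 SAHA, 291 in STAT3 diluent, 203 in H3K4me3 SAHA and 228 in H3K4me3 diluent, against 285 in IgG. Its fold enrichment was 50.39 in H3K4me3 SAHA and 45.46 in H3K4me3 diluent, against 31.29 in IgG, although its H3K4me3 tags were fewer. The region chr2:41751282-41752249, inside a listed transcript of Lrp1b (a lipoprotein receptor relative), had 97, 94, 22 and 32 tags in the same order of libraries, against 100 in IgG.

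The 10 regions with the most tags (857 to 3758) were also in all 4 tables, with fold enrichments of 2.5 to 26.59. Neighbouring regions on chromosome 2 led: chr2:98506030-98508023 had 4606 tags in STAT3 SAHA, 4740 in STAT3 diluent, 3545 in H3K4me3 SAHA and 3628 in H3K4me3 diluent, against 3758 in IgG. The other, chr2:98501834-98504630, had 3706, 8567, 2247 and 3230 tags in the same order, against 3723 in IgG, with 2 regions summed in each diluent library. Neither was in any list against IgG. chr17:39979438-39986190, which holds the annotated microRNA gene Mir715, had 4390 tags in STAT3 SAHA, 2502 in STAT3 diluent, 671 in H3K4me3 SAHA and 1063 in H3K4me3 diluent, against 2904 in IgG. There the SAHA STAT3 library was highest and both H3K4me3 libraries were lowest. chr9:35112454-35113662 held nearly the same number of tags in every library, 1398 in STAT3 SAHA, 1403 in STAT3 diluent, 1285 in H3K4me3 SAHA and 1336 in H3K4me3 diluent, against 1399 in IgG. The highest of these raw counts was 1.09 times the lowest. Per 1000000 filtered tags, the values there ran from 56.1 in STAT3 diluent to 78.5 in STAT3 SAHA, with 73.9 in IgG. The caller kept at most 2 tags at a position, per the file headers, and the part of that limit in these counts was not tested. Over the 159 regions with 1 partner in each other table, the highest tag count was a median of 3.63 times the lowest (1.09 to 24.7).

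Tag ratios at paired regions gave the size of any excess over IgG. The ratio compares tags per 1000000 filtered tags in regions that overlap 1 to 1, as log2 of the ChIP library over IgG. STAT3 SAHA had a median of 0.045 over 399 pairs (quartiles -0.12 and 0.23), and STAT3 diluent a median of -0.32 over 377 pairs (-0.52 and -0.10). H3K4me3 SAHA had a median of -1.75 over 203 pairs and H3K4me3 diluent -1.45 over 223 pairs. Per kb of region these medians were -0.62 and -0.48. Scaling to the tags outside called regions, an alternative chosen after seeing the data, moved them to -0.43 and -0.059 and left the STAT3 medians at 0.046 and -0.32. At least 2-fold more tags than IgG were found at 3 pairs (0.752%) in STAT3 SAHA, 1 (0.265%) in STAT3 diluent, 21 (10.3%) in H3K4me3 SAHA and 19 (8.52%) in H3K4me3 diluent. At least 2-fold fewer were found at 5 (1.25%), 20 (5.31%), 154 (75.9%) and 168 (75.3%) pairs in the same order. The H3K4me3 counts rest on the scaling: with tags outside called regions, 27 pairs were at least 2-fold higher and 29 lower in SAHA, and 31 higher and 15 lower in diluent. Per kb, at least 2-fold higher density was found at 11 pairs in STAT3 SAHA, none in STAT3 diluent, 22 in H3K4me3 SAHA and 20 in H3K4me3 diluent, and at least 2-fold lower density at 3, 20, 65 and 51 pairs. None of the 3 STAT3 SAHA pairs and the 1 STAT3 diluent pair that were 2-fold higher in tags was so per kb.

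**Figure D3:**
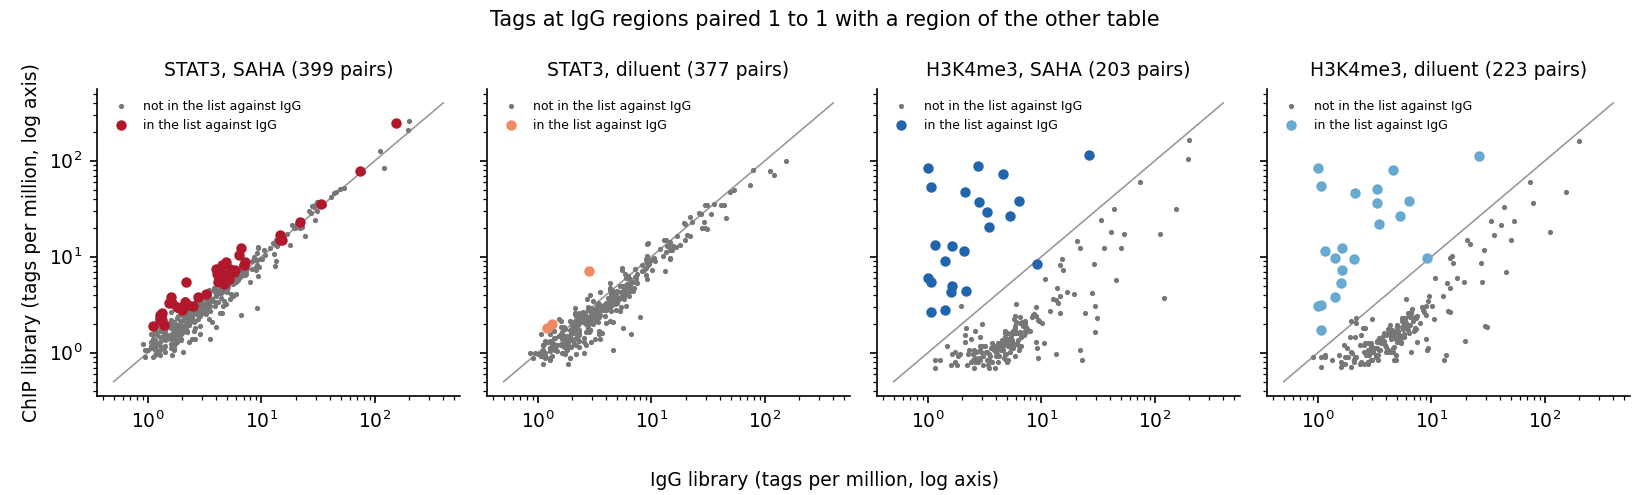
Tags per 1000000 filtered tags at paired regions in each ChIP library (y axis, log) against IgG (x axis, log), with the line of equality; coloured points are IgG regions whose paired region is in the list called against IgG. STAT3 points follow the line (medians of 0.045 and -0.32 in log2), and the H3K4me3 points form one group below it and a smaller group above it.

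Most paired summits lay close together. Their median distance was 4 bp in STAT3 SAHA, 5 bp in STAT3 diluent, 7 bp in H3K4me3 SAHA and 6 bp in H3K4me3 diluent, and 79.3 to 85.5% of pairs lay within 100 bp. The exceptions numbered 42 in H3K4me3 SAHA and 38 in H3K4me3 diluent, among them 9 and 10 of the 12 pairs at gene starts. Across pairs, log2 tags in IgG followed those in STAT3 SAHA (Pearson 0.96, 399 pairs) and STAT3 diluent (0.96, 377 pairs) and less so those in H3K4me3 SAHA (0.42, 203 pairs) and H3K4me3 diluent (0.52, 223 pairs). These are descriptions across regions that share a library and a genome, not tests. Both STAT3 ratios were available at 352 regions, where the SAHA value exceeded the diluent value at 296 (84.1%), with a median difference of 0.38 in log2 (quartiles 0.14 and 0.61 over regions, which are not replicates of a condition). These 2 ratios share the IgG counts, which cancel in the difference. The STAT3 diluent library had more filtered tags (25013431, against 17810183 in STAT3 SAHA) and more duplicate reads (32.6%, against 25.9%). The part of depth and duplicates in the difference was not tested.

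At gene starts most H3K4me3 pairs held more tags than IgG. Only starts of transcripts named in the lists against IgG were known, and most regions of those lists are H3K4me3 regions. A start is thus more often known where H3K4me3 exceeded IgG, so this excess is partly set by the choice of starts. Of the 12 pairs with a start within 1 kb, 10 had at least 2-fold more tags in H3K4me3 SAHA (median log2 2.63) and 9 in H3K4me3 diluent (2.43), while pairs without such a start had medians of -1.77 in SAHA and -1.48 in diluent. Scaled to tags outside called regions, the medians at starts were 3.95 and 3.83 and those away from starts -0.45 and -0.081, and per kb they were 2.01 and 2.10 at starts and -0.65 and -0.50 away from them. The region at mKIAA1721 and Xpo4 (exportin 4), chr14:58283026-58283643, had 1786 tags in H3K4me3 SAHA and 1884 in H3K4me3 diluent, against 19 in IgG (log2 6.38 and 6.39). The H3K4me3 regions there were 2991 bp long in SAHA and 2924 bp in diluent, against 618 bp in IgG, and per kb the ratios were 4.10 and 4.14. The Opn3 region, chr1:177623604-177624270, had 1130 tags in H3K4me3 SAHA and 1226 in H3K4me3 diluent, against 20 in IgG (log2 per kb 3.58 and 3.73). Nsfl1c had 1000 and 1034 tags at chr2:151320918-151321988, against 40 in IgG, again in the order H3K4me3 SAHA and H3K4me3 diluent (log2 per kb 3.03 and 3.24). At these 3 loci the ChIP counts and densities stood far above IgG in both conditions, with summits 775 to 1516 bp from the IgG summit, and none of the 3 was in a STAT3 table. Eef2 (translation elongation factor 2), at chr10:80640340-80642259, had 1553 tags in H3K4me3 SAHA and 1781 in H3K4me3 diluent, against 86 in IgG. STAT3 SAHA had 85 tags there, summed over 2 regions, and STAT3 diluent had no region. At Vmn2r29, whose promoter is given above, H3K4me3 had 194 tags in SAHA and 219 in diluent, against 27 in IgG. One H3K4me3 region of 1561 tags in SAHA and 1774 in diluent covered both IgG regions at the Clcn4-2 start, of 31 and 64 tags. Among the 12 IgG regions found in H3K4me3 tables alone, 7 lay within 1 kb of a start and 9 were in both H3K4me3 lists.

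Regions over an IgG region were found in the matching list at a lower rate than regions elsewhere in all 4 libraries. The lists were called against this same IgG library, so a lower rate over its regions is partly set by construction. Of STAT3 SAHA regions over an IgG region, 42 of 403 were in the STAT3 SAHA list (10.4%, 7.61 to 13.8), against 235 of 381 not over one (61.7%, 56.6 to 66.6). Of STAT3 diluent regions, 3 of 383 over an IgG region were in the STAT3 diluent list (0.783%, 0.162 to 2.27), against 280 of 461 not over one (60.7%, 56.1 to 65.2). For H3K4me3 the counts over an IgG region were 24 of 214 in SAHA (11.2%) and 22 of 240 in diluent (9.17%), against 95.8% of the regions not over one in each condition. In number, most H3K4me3 regions missing from the list lay away from IgG regions, 976 against 190 over one in SAHA and 880 against 218 over one in diluent. IgG regions underlay 51.4% of the STAT3 SAHA and 45.4% of the STAT3 diluent table, but 0.919% of the H3K4me3 SAHA and 1.12% of the H3K4me3 diluent table. The 100 regions of highest fold enrichment in each STAT3 table all lay over an IgG region, against 12 of 100 in H3K4me3 SAHA and 14 of 100 in H3K4me3 diluent. STAT3 regions over an IgG region recurred in the other STAT3 table in 88.6% of cases for SAHA and 93.2% for diluent, while those not over one recurred in 9.19% and 7.59%. The regions not over one were also weaker, with medians of 21 tags in SAHA and 29 in diluent, against 56 and 65 over one. The part of strength in this recurrence was not tested.

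**Figure D4:**
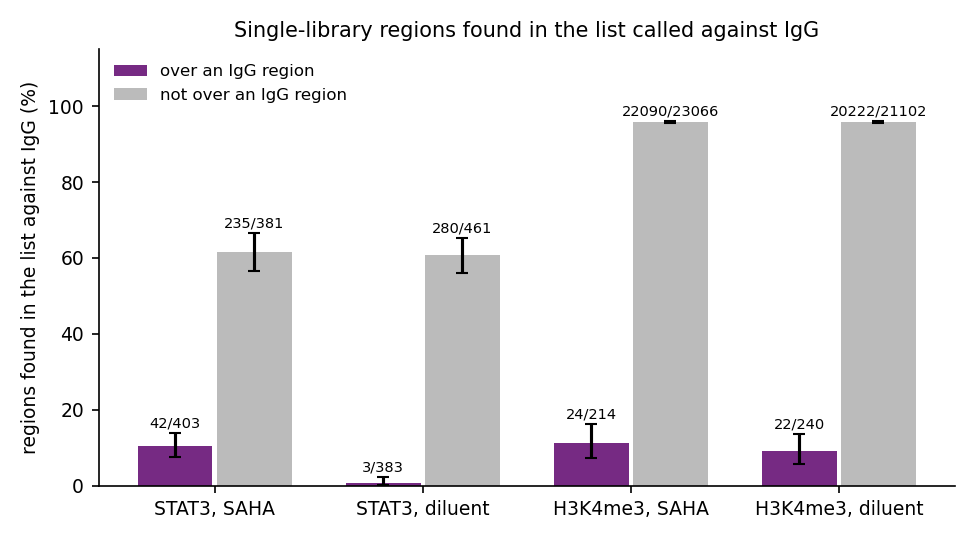
Share of the regions called without a control that were found in the matching list against IgG (y axis, %), for regions over an IgG region (purple) and not over one (grey), with exact 95% intervals and counts above the bars. The purple bars range from 0.783 to 11.2% and the grey ones from 60.7 to 95.8%. The lists used this IgG library as control, so lower purple bars are partly set by construction.

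The lists against IgG still contained IgG regions, and in STAT3 SAHA they reached its top. The first region by score in the authors' deposited STAT3 SAHA list, chr11:108872686-108873688, assigned to Axin2 (a negative regulator of Wnt signalling) at 68.3 kb, lay over an IgG region with 125 tags and had 220 tags in STAT3 SAHA (log2 0.90, 0.58 to 1.23). The second in that authors' deposited table, assigned to Mir715, is the chromosome 17 region given above, at log2 0.68 (0.62 to 0.75). Ranks 16, 18 and 27 of that authors' deposited table, assigned to Chl1 (a neural adhesion molecule), Txndc11 (a thioredoxin domain protein) and mimp3, also lay over IgG regions, with 631, 118 and 68 tags in STAT3 SAHA, against 639, 77 and 30 in IgG. IgG regions thus took 7 of the first 50 places and 8 of the first 100, against 0.503% of the whole STAT3 SAHA list. In the other lists the share was 0.0855% for STAT3 diluent, 0.101% for H3K4me3 SAHA and 0.103% for H3K4me3 diluent, and none took a place in the first 50.

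Presence in a list did not always go with an excess of tags beyond counting error. Of the 42 paired regions in the STAT3 SAHA list, the interval of the ratio held 0 at 22 and lay above 0 at 20. The ratios themselves ran from -0.0011 to 1.32, and all but that of the Pak3 region were above 0. Per kb, some of the others were below 0. The median was 0.51, against 0.024 for the 357 pairs not in the list. Calling against IgG selects for an excess. Medians in and out of a list, here and for H3K4me3 below, thus differ in part by construction. The Pak3 region was in that list with a ratio of -0.0011 (-0.25 to 0.24), and the chr9:35112454-35113662 region with a ratio of 0.087 (-0.021 to 0.19). The largest ratio of tags was 1.32 (0.77 to 1.88), at chr17:36368038-36368701, with 96 tags in STAT3 SAHA, against 41 in IgG, but the STAT3 region was 1277 bp long, against 664 bp in IgG, and the ratio per kb was 0.37. Per kb, the region at chr3:5860201-5861232 (1.22) and the Axin2 region (1.15) were higher. The 3 regions in the STAT3 diluent list, assigned in the authors' deposited table to Myom2, Olfr161 and Robo1 at 459.8, 345.1 and 369.7 kb, had 50, 176 and 45 tags in STAT3 diluent, against 25, 53 and 23 in IgG. The interval of the ratio held 0 for Myom2 (-0.12 to 1.35) and Robo1 (-0.19 to 1.36). The Olfr161 region was 2617 bp long in STAT3 diluent, against 1204 bp in IgG, with a ratio per kb of 0.21. Of the 3, the Myom2 region was also in the STAT3 SAHA list, with 46 tags. In H3K4me3 the pairs in the list had medians of 2.58 in SAHA and 2.57 in diluent, and those not in it -1.81 and -1.52. The top H3K4me3 list regions over an IgG region in the authors' deposited tables all had a score of 3100. That score was a wide tie, with 10409 regions in SAHA and 10199 in diluent at or above it. The top regions included those at Opn3, Eef2, Nsfl1c and Clcn4-2 in both conditions and Kpna1 (an importin) in diluent. Each of these was 0.47 kb or less from the assigned start. Also at that score were mKIAA1721, Oasl1 and Pisd-ps2 in both conditions and Esr1 and Fam46c in SAHA. The farthest of all was Pisd-ps2, at 0.799 kb in SAHA.

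Chromosome Y carried the densest group of IgG regions, although the cells are labelled as female. Its 28 regions lay within 123 kb and held 914 tags in IgG. The other tables had 23 regions on Y in STAT3 SAHA (21 over an IgG region), 30 in STAT3 diluent (23), 9 in H3K4me3 SAHA (9) and 11 in H3K4me3 diluent (11), and 1 of the STAT3 SAHA regions on Y was in its list against IgG. The source of the reads aligned to Y was not tested. Among the 28, 15 regions were nearly alike, with lengths of 486 to 502 bp, 20 to 24 tags and fold enrichments of 5.93 to 9.05. Of the 14 spacings between their summits, 12 lay within 10 bp of a whole multiple of 2297 bp, 7 of them at 1 unit and 4 at 2 units. Each STAT3 table held 12 of the 15, H3K4me3 diluent held 1 and H3K4me3 SAHA none.

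**Figure D5:**
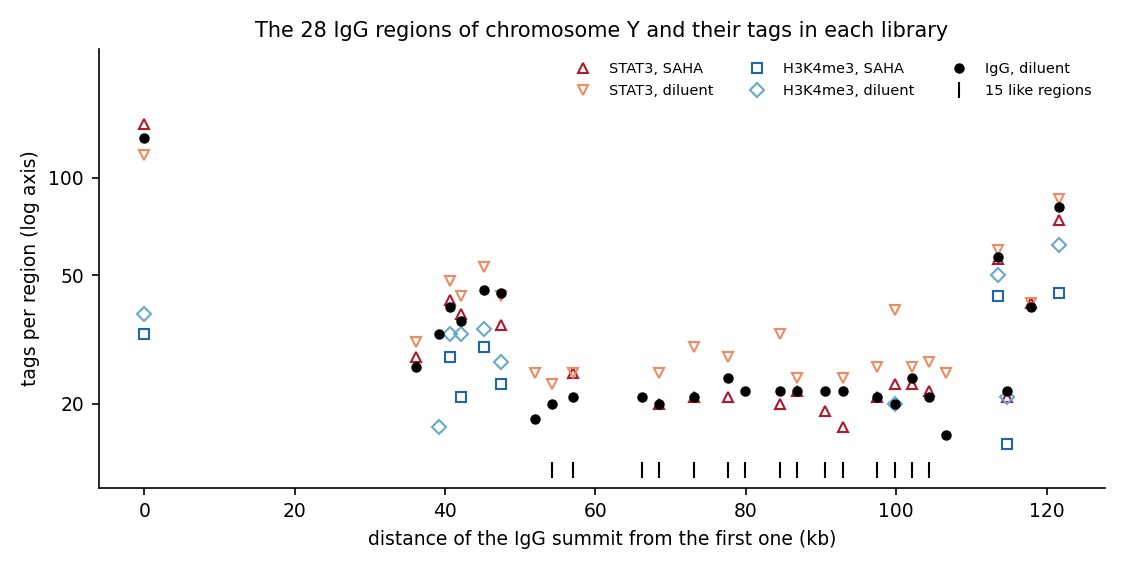
Tags per region (y axis, log) of the 28 IgG regions on chromosome Y and of the overlapping regions of the other libraries, by distance of the IgG summit from the first one (x axis, kb); ticks mark the 15 like regions. The 15 lie between 20 and 24 tags in IgG, with STAT3 points near them and 1 H3K4me3 point, while the region at 0 kb has 133 tags in IgG.

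Outside Y the regions were spread over all chromosomes. The 19 autosomes held 553, at 0.154 (chromosome 7) to 0.326 (chromosome 16) per Mb of the span that the tables cover, and chromosome X held 25. The first 3.5 Mb held 19 of the 578 regions off Y (3.29%), against 2.37% of STAT3 SAHA, 2.33% of STAT3 diluent, 0.468% of H3K4me3 SAHA and 0.464% of H3K4me3 diluent regions. The last 500 kb of the span held 20 (3.46%), against 2.76%, 2.46%, 0.688% and 0.713% in the same order. With a cluster defined as 3 or more regions each within 100 kb of the next, 10 clusters held 60 regions, 32 of them outside Y.

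The clusters outside Y differed in the genes they spanned. chr5:14970295-15062826 held 5 regions and 1833 tags, 1 of them over Speer8-ps1, a pseudogene of the Speer family, and a second cluster of 3 regions and 1222 tags lay nearby at chr5:15176646-15200421. chr17:3006310-3083364 held 4 regions with 3 of them in no other table. Its Pisd-ps2 region (a pseudogene of phosphatidylserine decarboxylase) had 528 tags in STAT3 SAHA, 718 in STAT3 diluent, 2475 in H3K4me3 SAHA and 2508 in H3K4me3 diluent, against 497 in IgG. chrX:166423535-166581245 held 4 regions and 1239 tags, 2 of them over Mid1, a ubiquitin ligase gene also listed as Fxy. chr19:61275296-61340693 held 3 regions, 1 of them over Csf2ra, the GM-CSF-binding subunit of the receptor. The first region of that cluster, outside Csf2ra, had 185 tags in STAT3 SAHA, against 120 in IgG (log2 0.71, 0.37 to 1.06). The other clusters were chr1:85175257-85343365 (4 regions, 3 in no other table), chr1:87343767-87452499, whose span includes Csprs (3), chr7:7230608-7253556 at Clcn4-2 and Vmn2r29 (3, all in both H3K4me3 tables) and chr8:40195850-40241570 at Tusc3 (3). Of a list of 46 multi-copy genes, 21 had a listed transcript and 3 names (Pisd-ps2, Mid1 and its other name Fxy) had an IgG region over it, against 193 of all 17023 genes (1.13%). The list was chosen with earlier results of these data known, and these names lie in clusters given above. No enrichment of multi-copy genes is therefore read from the comparison.

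The strongest of the 164 regions found in no other table was chr16:78992363-78993014, within Tmprss15 (enteropeptidase), with 39 tags and a fold enrichment of 17.79 in IgG. It was the highest of its class in score and fold enrichment, not in tags, which reached 235. The 10 highest-scoring regions of that class had 31 to 98 tags and fold enrichments of 3.61 to 17.79, and none was in a list against IgG.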

How the data were processed

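The authors aligned reads to mm9 with BWA, per the submitters' processing notes, and called regions in each library alone with MACS 1.4.0rc2 (p limit 1e-05, at most 2 duplicate tags, band width 300 bp, local background 10000 bp), per the file headers. The deposited tables give tag counts per region, a fold enrichment (ratio to local background) and a score. The 4 deposited lists against IgG give a score and an assigned gene; their caller and settings are not given in the sources used here. Starts in these lists were moved to 1-based positions. Overlap (at least 1 bp), 1 to 1 pairs, clusters and log2 ratios per 1000000 filtered tags, with exact binomial limits, were computed in Python 3.11.15 with scipy 1.17.1 and tested on simulated data. No test across groups was possible with 1 library each. The regions named were the 10 highest in fold enrichment, in tags and (found nowhere else) in score. The 5 highest-scoring per list and the 10 largest clusters were also named. In the H3K4me3 lists, where the top score was tied, all tied regions over an IgG region were named. Regions at gene starts, the Csf2ra and Pisd-ps2 values, chr3:5860201-5861232 and chr17:36368038-36368701 were chosen after their values were seen. Members and gene lists were chosen with earlier results of these data known. Alternatives covered overlap, thresholds, cluster gap, chromosome Y and scaling. Some marker genes of other cell types are not reported here.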

Additional observations from a re-analysis of the deposited data

Results flagged for a closer look

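The median log2 tag ratio of STAT3 over IgG at paired IgG regions was 0.045 in the SAHA library and -0.32 in the diluent library, so the medians had opposite signs. The difference was not tested, since each condition had 1 library. The STAT3 libraries also differed in depth and duplicate reads, as given above. The 5-base word AAAAA was over-represented in the reads of H3K4me3 SAHA (3.09 times the predicted number) and H3K4me3 diluent (3.38 times) and was not among the words reported for the IgG library.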

How the results depend on the processing

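No paired analysis was possible because each group had 1 library. Of 119 alternative values, 87 stayed within 1.5 times the count or within the interval of the median, and 32 moved; none changed sign. With at least 50% of the IgG region covered, regions in all 4 tables fell to 60 and those in H3K4me3 SAHA and H3K4me3 diluent to 104 and 127. With equal numbers of top regions, H3K4me3 SAHA and diluent overlapped 8 and 2. IgG regions of fold enrichment 10 or more gave 268 in STAT3 SAHA, and 0, 6 and 5 in the STAT3 diluent, H3K4me3 SAHA and H3K4me3 diluent lists. IgG regions of score 100 or more gave 0, 12 and 9 in those lists, counted either way. List scores of 100 or more left 6 in STAT3 SAHA and 0 in STAT3 diluent, and a gap of up to 1000 bp gave 5 in STAT3 diluent. List regions at least 50% covered numbered 9 in H3K4me3 SAHA and 11 in H3K4me3 diluent. Clusters numbered 2 (30 regions) within 10 kb and 31 (137 regions) within 1000 kb, and 32 regions remained in clusters without chromosome Y. Tag ratio medians were -0.62 (H3K4me3 SAHA) and -0.48 (H3K4me3 diluent) per kb, -0.43 and -0.059 scaled to tags outside called regions, and -0.37 for STAT3 diluent with total tags. Fewer regions enter under the stricter settings; other causes were not tested. Leaving out chromosome Y and scaling to tags outside regions were chosen after seeing the data. Regions with 16 to 25 tags limit what single ratios can show.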
